A study of Mus musculus with 41 samples.

Results

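Alpl and Bglap, 2 genes of bone mineralization, were examined through the peaks that 8 lists of mouse skeletal cells and fibroblasts hold in windows around them. A member was any peak whose centre lay, in build mm9, in chr4:137200000-137450000 around Alpl or in chr3:88130000-88250000 around the Bglap cluster. The windows are 250 kb and 120 kb long. They held 85 of the 155773 listed peaks, 63 in the Alpl window and 22 in the Bglap window.

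Alpl encodes tissue-nonspecific alkaline phosphatase, an enzyme on the surface of osteoblasts and hypertrophic chondrocytes that breaks down pyrophosphate, an inhibitor of mineral growth, and releases phosphate. Bglap encodes osteocalcin, a small protein that mature osteoblasts secrete and that binds calcium after vitamin K-dependent carboxylation. Mouse carries it in a cluster with the related genes Bglap2 and Bglap3. Runx2 is the transcription factor needed for osteoblast formation, and the Bglap promoter is one of the sequences on which its binding was first worked out. Foxa2 is a forkhead factor of chondrocytes in late maturation, and Jun is a subunit of the AP-1 factor.

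The series held 41 samples of chromatin immunoprecipitation (ChIP-seq), input, IgG and ATAC-seq, of which the 10 ChIP-seq samples had given the 8 lists. FLAG precipitation brought down tagged Runx2 from chondrocytes of the rib and osteoblasts of the calvaria, both of C57BL/6 Runx2-BioFL/+ knock-in mice at postnatal day 1 (2 libraries and 1 list for each cell type). These mice carry the tag on 1 of their 2 Runx2 alleles. Foxa2 was precipitated from rib chondrocytes, and Jun from calvarial osteoblasts, of wild-type C57BL/6 mice at postnatal day 1 (1 library each). 3T3 cells, a mouse fibroblast line, overexpressed Runx2BioFL or, as the background control, GFP, and all 4 lists came from FLAG precipitation (1 library each). They were taken at day 0 or after 3 days in osteogenic medium, which holds rhBMP-2 at 100 ng/ml, a phosphate source (β-glycerophosphate) and ascorbic acid phosphate. The cells of ribs and calvaria were digested from dissected tissue, and no sorting is named for the ChIP-seq samples. Chondrocytes came from rib alone and osteoblasts from calvaria alone, so effects of cell type and of body site cannot be told apart. Peak lists hold no expression values, so the labelled cell types were not checked against markers.

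The lists ranged from 2475 peaks (3T3 GFP day 0) to 50180 (3T3 Runx2 day 3), and their read depth is unknown here. With 1 list for each group there is no replicate error, and no difference between groups was tested. Intervals are 95% intervals for counting error only, exact Poisson for counts and exact Clopper-Pearson for shares, and peaks of 1 locus are neighbours, not replicates. Labels of 2 lists were crossed: by its description, the Runx2 day 0 sample owns the file whose name says GFP day 3, and the GFP day 3 sample owns the file whose name says Runx2 day 0. Both are used under their own names, and the main values after their exchange are given beside them. Every statement on Runx2 at day 0 or GFP at day 3 in 3T3 cells rests on these names.

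The sequences around the starts of the genes are shown first, as the regulatory sequences closest to the genes that were at hand. They come from RefSeq, build GRCm38.p6, and run from 250 bases before to 50 bases after a start, 5′ to 3′ on the gene's strand (the minus strand for both genes). Their coordinates are of that build and were not converted to mm9, so they are not set against the positions of the peaks. No distance of a peak from the start inside the Alpl gene is therefore given. Capitals mark ACCACA, the core letters of RUNX sites, searched on both strands. The Bglap sequence is at chr3:88384417-88384716, the first Alpl sequence, at the more upstream start, is at chr4:137796335-137796634 and the second, at a start inside the gene, is at chr4:137766426-137766725.
Bglap: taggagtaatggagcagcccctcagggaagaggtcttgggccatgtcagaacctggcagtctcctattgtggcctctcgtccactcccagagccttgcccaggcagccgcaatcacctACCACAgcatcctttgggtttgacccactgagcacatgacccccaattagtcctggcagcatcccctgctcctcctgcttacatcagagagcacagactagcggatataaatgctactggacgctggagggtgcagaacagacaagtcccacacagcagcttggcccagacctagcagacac
Alpl upstream start: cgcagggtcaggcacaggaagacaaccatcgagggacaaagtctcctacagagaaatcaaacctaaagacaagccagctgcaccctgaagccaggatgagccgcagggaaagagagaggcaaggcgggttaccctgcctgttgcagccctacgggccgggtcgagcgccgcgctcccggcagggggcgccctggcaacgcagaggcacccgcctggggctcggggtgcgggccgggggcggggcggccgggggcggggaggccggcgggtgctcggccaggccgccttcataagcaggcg
Alpl internal start: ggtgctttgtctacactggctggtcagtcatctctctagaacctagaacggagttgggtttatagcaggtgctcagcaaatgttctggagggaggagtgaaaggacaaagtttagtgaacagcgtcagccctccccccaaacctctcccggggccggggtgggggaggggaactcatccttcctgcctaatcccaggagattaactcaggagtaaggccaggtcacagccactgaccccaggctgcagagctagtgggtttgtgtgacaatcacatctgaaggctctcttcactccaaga
The Bglap promoter held 1 match, whose first base lay 132 bases before the start. Neither Alpl promoter held a match, nor did any of the 3 Bglap3 promoters in the table. Of all 32851 promoters of this length, 16.8% held a match. The AP-1 letters TGANTCA were in none of the Bglap and Alpl promoters, against 7.81% of all promoters, and neither were the forkhead letters TGTTTNC, against 20.5%. Of the 3 Bglap3 promoters, 0 held the AP-1 letters and 1 held the forkhead letters, as TGTTTCC, whose first base lay 11 bases before the start. A match is a description of letters and not a site. No genome of build mm9 was used here, so the sequence under the peaks was not searched.

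In the Alpl window, osteoblast Runx2 had 8 peaks and chondrocyte Runx2 had 3. The intervals of these counts were 3.45 to 15.8 and 0.619 to 8.77, and they overlap. Set against the whole lists, 1.21% of 10548 stretches of 250 kb laid end to end along the chromosomes held at least 8 osteoblast Runx2 peaks, while 21.9% held at least 3 chondrocyte Runx2 peaks. Chondrocyte Foxa2 had 8 peaks (3.45 to 15.8), a number reached in 1.92% of stretches, and osteoblast Jun had 1, reached in 44.9%. In 3T3 cells Runx2 had 12 peaks at day 0 (6.20 to 21.0) and 28 at day 3 (18.6 to 40.5), reached in 6.66% and 2.02% of stretches. GFP had 1 peak at day 0 and 2 at day 3, reached in 14.6% and 30% of stretches. With the crossed lists exchanged, Runx2 day 0 had 2 peaks and GFP day 3 had 12.

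**Figure D1:**
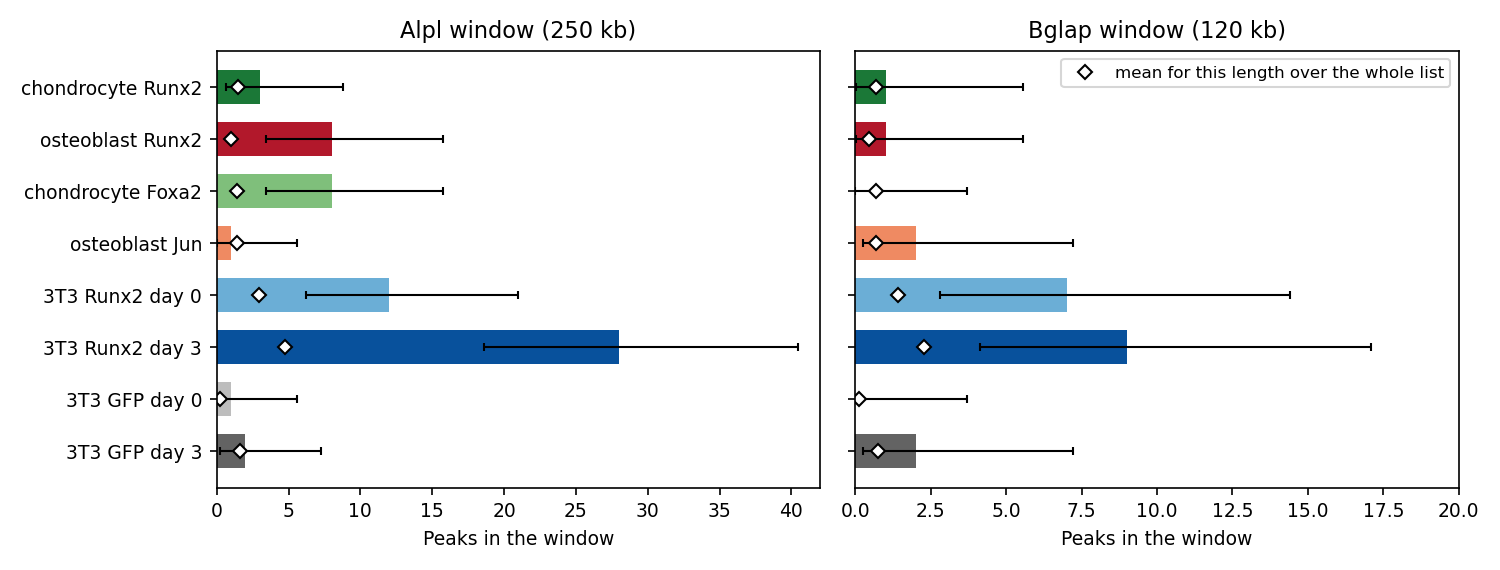
Peaks of each list (y axis) whose centre lies in the Alpl window (left) or the Bglap window (right), as bars from 0 (x axis, number of peaks) with exact Poisson 95% intervals as lines. Diamonds mark the mean number of peaks for a stretch of that length over the whole list. Diamonds lie below the interval for osteoblast Runx2, Foxa2 and 3T3 Runx2 of both days in the Alpl window and for 3T3 Runx2 of both days in the Bglap window, and inside the interval for the other lists.

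The 63 peaks merged, where they overlapped by at least 1 bp, into 42 sites, of which 29 belonged to a single list, 7 to 2 lists, 5 to 3 lists and 1 to 5 lists. Of the single-list sites, 16 were of 3T3 Runx2 day 3, 6 of Foxa2, 3 of osteoblast Runx2 and 1 each of chondrocyte Runx2, Jun, 3T3 Runx2 day 0 and 3T3 GFP day 3. The share of single-list sites over the whole lists was not computed, so these site counts have no background beside them. Peaks were 55 to 461 bp wide, with a median of 171 bp. Without the 2 lists with crossed labels, 40 sites remained and 8 of them, in place of 13, were in more than 1 list. Sites outside the rule stated under the methods are named after their values were seen.

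Runx2 of the primary cell types had no overlapping peaks inside the Alpl window. Of the 8 osteoblast peaks, 0 overlapped a chondrocyte peak (interval of the share 0 to 36.9%), against 45.2% of the whole osteoblast list. Likewise 0 of the 3 chondrocyte peaks overlapped an osteoblast peak (0 to 70.8%), against 29.9% of that list. The chondrocyte interval spans the share of its whole list, and the osteoblast interval ends below it. In a window widened by 50% of its length on each side, 3 of 14 osteoblast peaks (21.4%) and 3 of 9 chondrocyte peaks (33.3%) overlapped the other cell type. An osteoblast peak at chr4:137197652-137197981, its centre 2.18 kb outside the low border, held a chondrocyte peak at chr4:137197734-137197828. The lack of overlap therefore holds for the window as drawn and depends on where that border lies.

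The stated interval of the gene was about chr4:137297600-137352300, and Alpl is read from the higher to the lower coordinate, so distances from its 5′ and 3′ ends are approximate. All 8 osteoblast Runx2 peaks lay on the downstream side of the 5′ end: 1 in the 27.4 kb of the gene nearer that end, 2 in the 27.4 kb nearer the 3′ end and 5 in the 97.6 kb past the 3′ end. Of the 3 chondrocyte peaks, 2 lay in the 97.7 kb upstream of the gene and 1 inside it. The upstream flank held no osteoblast Runx2 peak. The 3 chondrocyte peaks were at chr4:137310397-137310548 inside the gene, chr4:137409868-137410043 and chr4:137446674-137446831, that is 41.8 kb downstream and 57.7 and 94.5 kb upstream of the 5′ end. The chondrocyte peak inside the gene was 5.58 kb, centre to centre, from the nearest osteoblast peak and was in no other list.

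**Figure D2:**
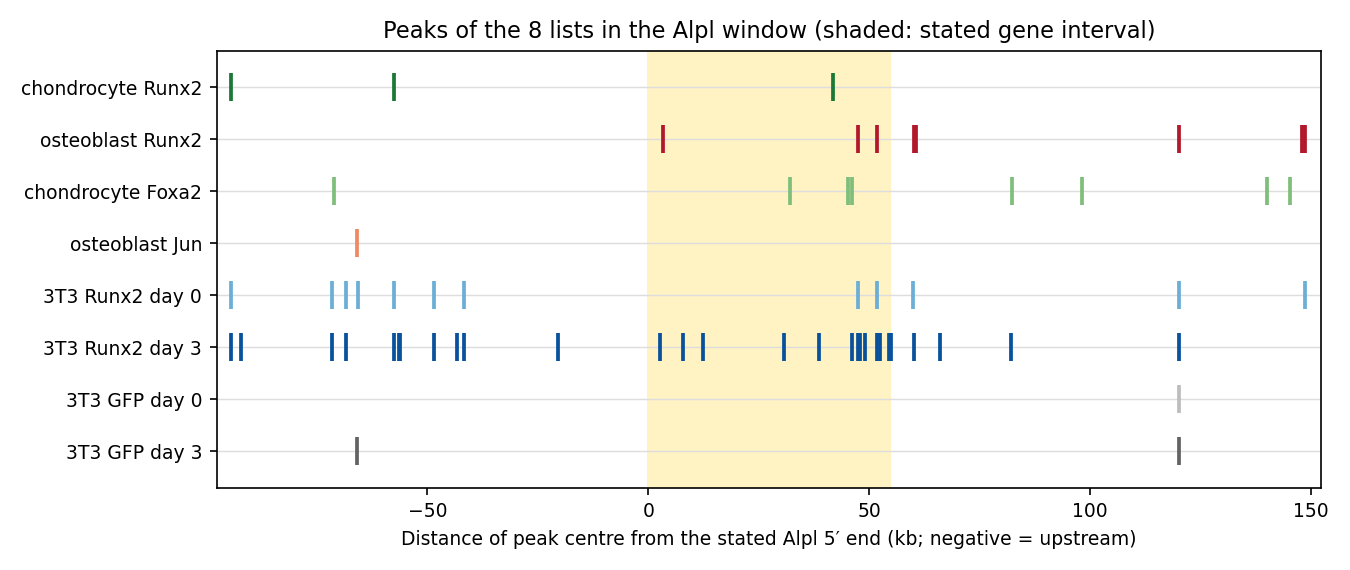
Each tick is the centre of 1 peak of the list named on the y axis, by its distance in kb from the stated 5′ end of Alpl (x axis, negative values upstream), with the stated gene interval shaded. The 8 osteoblast Runx2 ticks lie downstream of the 5′ end, 2 of the 3 chondrocyte Runx2 ticks lie upstream of it, and 9 ticks of 3T3 Runx2 day 3 crowd within 10 kb of the 3′ end.

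Several lists had peaks close together at the 3′ end of the gene, though the window was not scanned for its densest stretch. Of the 12 peaks named for 3T3 Runx2 day 0, 7 lay in the upstream flank. Within 10 kb of that end, a distance chosen after the positions were seen, osteoblast Runx2 had 4 of its 8 peaks, 3T3 Runx2 had 3 of 12 at day 0 and 9 of 28 at day 3, and Foxa2 had 2 of 8. Chondrocyte Runx2, Jun and both GFP lists had none there, and their nearest peaks were 12.9 kb (chondrocyte Runx2), 121 kb (Jun) and 65.4 kb (GFP, both days) away, with the lists under their own names. With the crossed lists exchanged, the 3 peaks named for Runx2 day 0 count as GFP day 3, Runx2 day 0 had 0 peaks there, and 3 of the 4 osteoblast and 3 of the 9 day 3 peaks overlapped a GFP peak. Of 131956 stretches of 20 kb along the genome, 0.0561% held at least 4 osteoblast Runx2 peaks, 0.122% at least 9 of 3T3 Runx2 day 3, 2.53% at least 3 of 3T3 Runx2 day 0 and 1.57% at least 2 of Foxa2. A stretch centred on known peaks holds more of them than fixed stretches do, so these shares describe the stretch and test nothing. Removal of peaks that overlap a GFP list left the 4, 3 and 9 Runx2 peaks as they were under these names, and left 1 osteoblast and 6 day 3 peaks after the exchange.

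Of the 4 osteoblast peaks at the 3′ end, 3 were shared with both lists named for 3T3 Runx2. Over the whole osteoblast list, 58.5% of peaks overlapped 3T3 Runx2 day 3 and 53.2% overlapped day 0, each list taken alone. The share that overlapped both was not computed, so the 3 of 4 has no like background beside it. The site at chr4:137300499-137300755, 3.03 kb inside the 3′ end, held peaks early in each file: line 916 of 10241 for osteoblast Runx2, line 3613 of 31013 for 3T3 Runx2 day 0 and line 73 of 50180 for day 3. The site at chr4:137304787-137304991, 7.29 kb inside, had its peaks at line 3063 for osteoblasts, 22438 at day 0 and 2308 at day 3. The site at chr4:137292212-137292445 lay 5.27 kb past the 3′ end, with lines 2790, 23121 and 1659 in the same order. Centres of the lists at these 3 sites lay within 68.5, 18 and 67.5 bp of each other. The remaining osteoblast peak, chr4:137291694-137291784, was in no other list.

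Within 10 kb of the stated 5′ end of Alpl, osteoblast Runx2 had 1 peak, a number reached in 6.33% of the 20 kb stretches, and 3T3 Runx2 day 3 had 2, reached in 9.06%. The other 6 lists had none. The nearest to that end were a 3T3 Runx2 day 3 peak at chr4:137349651-137349843, 2.55 kb inside the gene, and an osteoblast Runx2 peak at chr4:137348923-137349042, 3.32 kb inside. Their centres were 765 bp apart and they did not overlap. Each was in a single list. In the other 6 lists the nearest peak lay 32.1 kb (Foxa2) to 120 kb (GFP day 0) from this end, with 3T3 Runx2 day 0 at 41.7 kb and chondrocyte Runx2 at 41.8 kb.

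The site in the most lists was also in both GFP lists. At chr4:137232056-137232248, 65.4 kb past the 3′ end, peaks of osteoblast Runx2, of 3T3 Runx2 at both days and of GFP at both days overlapped, with centres within 48 bp. It was the only peak of the GFP day 0 list in either window. The other osteoblast peaks were at the far downstream edge, chr4:137203690-137203897, shared with 3T3 Runx2 day 0, and chr4:137204273-137204488, in no other list. In the gene order of RefSeq, Rap1gap is the protein-coding gene next to Alpl on the lower-coordinate side, which is its downstream side, followed by Usp48, and Ece1 is the next on the upstream side, so a peak in a flank is not assigned to Alpl by its place here.

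Foxa2 and Runx2 did not meet in chondrocytes at Alpl. Of the 8 Foxa2 peaks, 0 overlapped a chondrocyte Runx2 peak (0 to 36.9%), against 19.2% of the Foxa2 list, and the interval spans that share. The nearest pair was 3.45 kb apart, the Foxa2 peak at chr4:137306978-137307067 and the chondrocyte peak inside the gene. Foxa2 lay 4 times in the downstream flank, 3 times in the gene and once upstream. The earliest of its peaks in the file, line 6 of 14738, was the upstream one at chr4:137423314-137423406, and its latest was line 13516. That peak lay 612 bp, centre to centre, from a 3T3 Runx2 day 3 peak.

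Runx2 of fibroblasts overlapped Foxa2 at 2 sites, both listed for 3T3 Runx2 at day 3 and not at day 0. These were chr4:137270022-137270221, 27.5 kb past the 3′ end, and chr4:137306048-137306261, 8.55 kb inside it, with centres 58 and 41 bp apart. The share, 2 of 8 Foxa2 peaks (25%, 3.19 to 65.1%), has an interval that spans the 10.8% of the whole Foxa2 list. The other 6 Foxa2 peaks were in no other list, and the share of such peaks over the whole Foxa2 list was not computed.

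Jun had 1 peak in the Alpl window, at chr4:137418168-137418275, 65.9 kb upstream of the gene and at line 1490 of 14937. A 3T3 Runx2 day 0 peak ended 28 bp before it and a GFP day 3 peak began 9 bp after it, so these 3 lists marked adjoining stretches without overlap. None of the 8 osteoblast Runx2 peaks overlapped Jun (0 to 36.9%), against 25.3% of the osteoblast list.

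In fibroblasts the Alpl window had 28 listed Runx2 peaks at day 3 and 12 at day 0, from whole lists of 50180 and 31013 peaks. Of the 28 day 3 peaks, 10 were also listed at day 0 (35.7%, 18.6 to 55.9%), against 51.4% over the whole list, a share inside the interval. Conversely 10 of the 12 day 0 peaks were listed at day 3 (83.3%, 51.6 to 97.9%), against 81.8%. The 2 at day 0 only were the peak next to Jun and the one shared with osteoblasts at the far downstream edge. With the crossed lists exchanged, 1 of the 28 day 3 peaks was also at day 0, and 1 of the 2 day 0 peaks was at day 3.

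The gene itself held 12 of the 28 day 3 peaks, 9 of them in the 27.4 kb nearer the 3′ end, and 2 of the 12 day 0 peaks. Upstream there were 11 at day 3 and 7 at day 0, and past the 3′ end 5 and 3. After the exchange the 2 day 0 peaks lay 1 upstream and 1 past the 3′ end. Of the 28 day 3 peaks, 4 overlapped osteoblast Runx2 (14.3%, against 14.1% of the whole list) and 2 overlapped chondrocyte Runx2 (7.14%, 0.877 to 23.5%, against 18.4%). The 10 day 3 peaks also at day 0 included all 4 and both of these, where 22.9% and 29.6% of such peaks of the whole list overlapped osteoblast and chondrocyte Runx2. The 18 at day 3 only included none of either, where the whole-list shares were 4.82% and 6.65%. They also stood later in the file: their median position was 64.8% of the list (20.8 to 96.6%), against 8.19% (0.145 to 72.3%) for those on both days, and the part of file position in the contrast was not tested. File positions of these classes over the whole list were not computed. After the exchange 1 of the 28 day 3 peaks was also at day 0, so the split into these classes rests on the names of the lists.

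GFP background touched 1 of the 28 day 3 Runx2 peaks (3.57%, 0.0904 to 18.3%), against 15.9% of the whole list, and 1 of the 12 day 0 peaks (8.33%, 0.211 to 38.5%), against 4.37%. In both cases it was the site shared by 5 lists. Exchanging the crossed lists gave 10 of 28 at day 3 (35.7%) and 1 of 2 at day 0.

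Of the 8 osteoblast Runx2 peaks of the Alpl window, 4 were also listed for 3T3 Runx2 at day 3 (50%, 15.7 to 84.3%), against 58.5% of the osteoblast list, and 5 at day 0 (62.5%, 24.5 to 91.5%), against 53.2%. With the crossed lists exchanged, 1 of the 8 was at day 0 and 5 overlapped GFP day 3. Of the 3 chondrocyte peaks, 2 were listed at day 3 (66.7%, 9.43 to 99.2%), against 52.7%, and the same number at day 0 (against 48.2%). After the exchange none was at day 0 and 2 overlapped GFP day 3. All these intervals span the share of the whole list. These chondrocyte sites were the upstream ones, chr4:137409842-137410049 and chr4:137446572-137446837, which both lists named for 3T3 Runx2 held. The 4 osteoblast sites of day 3 were the 3 at the 3′ end and the 1 shared with GFP.

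**Figure D3:**
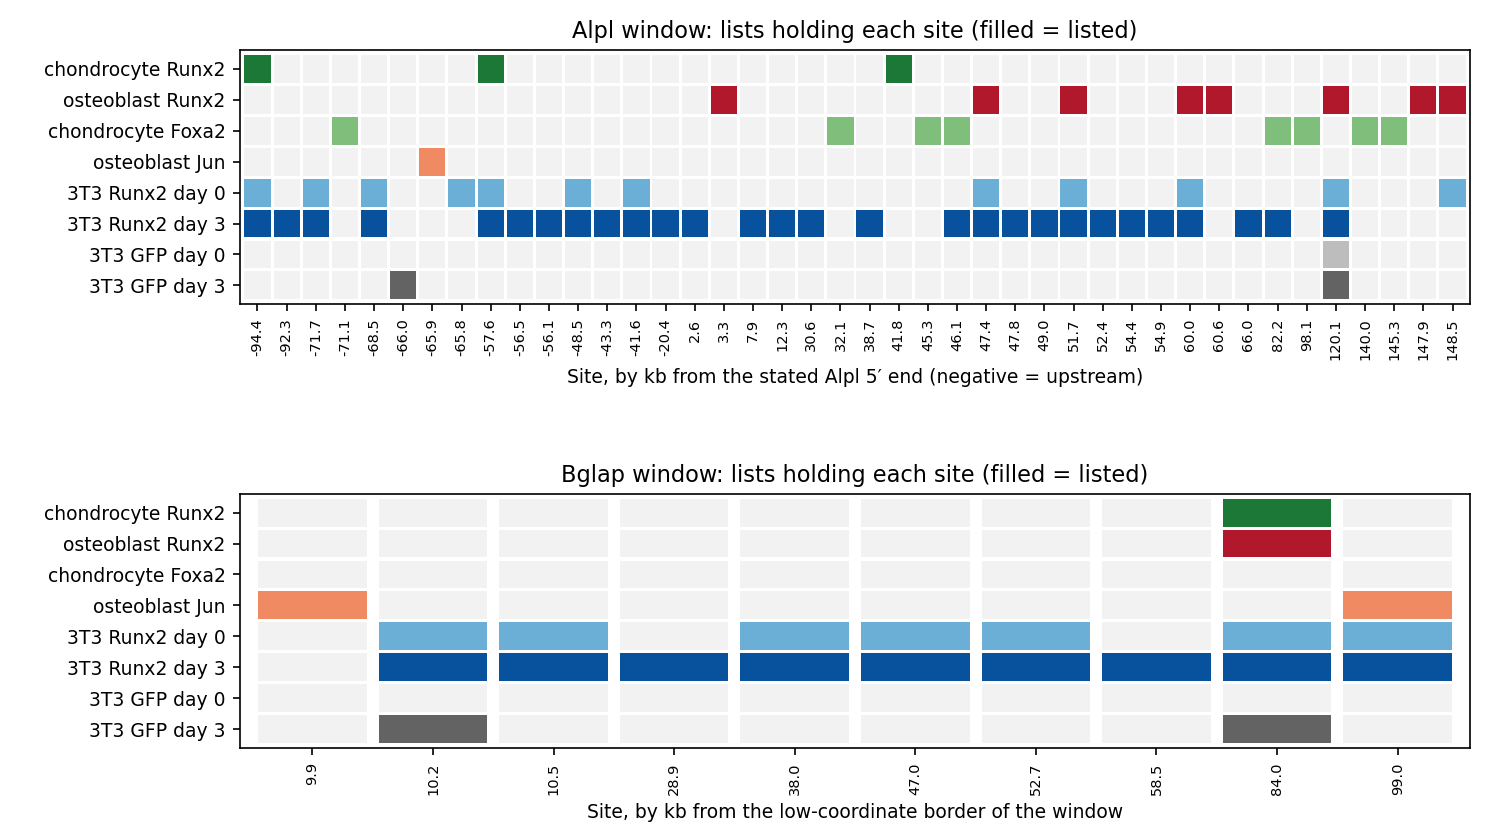
Each column is a merged site and each row a list, filled where the list holds a peak, with sites ordered by kb from the stated Alpl 5′ end (top, negative values upstream) or from the low-coordinate border of the Bglap window (bottom). No Alpl column is filled for both primary-cell Runx2 lists, while 1 Bglap column is, at 84.0 kb.

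The Bglap window, 120 kb against the 250 kb of Alpl, held 22 peaks. Per 100 kb, osteoblast Runx2 had 0.833 peaks there against 3.2 at Alpl, chondrocyte Runx2 0.833 against 1.2 and 3T3 Runx2 day 3 7.5 against 11.2. Foxa2 had 0 against 3.2, and GFP day 0 had 0 against 0.4. The order was the other way for 3T3 Runx2 day 0 (5.83 against 4.8), Jun (1.67 against 0.4) and GFP day 3 (1.67 against 0.8), and none of these differences was tested. Chondrocyte Runx2 and osteoblast Runx2 had 1 peak each (intervals 0.0253 to 5.57), numbers reached in 34.9% and 25.5% of 21983 stretches of 120 kb. Jun had 2, reached in 16.3%. Runx2 of 3T3 cells had 7 peaks at day 0 (2.81 to 14.4) and 9 at day 3 (4.12 to 17.1), reached in 5.93% and 8.13% of stretches. The list named for GFP day 3 had 2, reached in 17.9%, and GFP day 0 and Foxa2 listed none. With the crossed lists exchanged, Runx2 day 0 had 2 and GFP day 3 had 7.

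These 22 peaks formed 10 sites, 3 in a single list, 4 in 2 lists, 2 in 3 lists and 1 in 5 lists, and were 85 to 448 bp wide. As at Alpl, the site counts have no whole-list share beside them. Without the lists with crossed labels, all 10 sites remained, and 2 in place of 7 were in more than 1 list. Gene order in RefSeq places Paqr6, Bglap3, Bglap2, Bglap and Pmf1 next to each other, with Slc25a44 and Sema4a beyond Pmf1. Their positions in mm9 were not used here, so no peak is assigned to a gene of the cluster. Bglap and Bglap2 are close copies, and how reads that map to both were counted is not given in the sources used here, so the number of peaks within the cluster is uncertain.

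Both primary cell types had their only Runx2 peak of the Bglap window at the same site, chr3:88213835-88214135. Over the whole lists, 29.9% of chondrocyte and 45.2% of osteoblast Runx2 peaks overlapped the other list. With 1 of 1 peak shared, the interval of the share here was 2.5 to 100% for each list. The chondrocyte peak ran from 88213892 to 88214038 and the osteoblast peak from 88213907 to 88213991, with centres 16 bp apart. Runx2 of 3T3 cells at both days and the list named for GFP day 3 had peaks there too, with all 5 centres within 36 bp. The peaks stood at line 3943 of 15390 for chondrocyte Runx2, 3483 of 10241 for osteoblast Runx2, 1318 and 4009 for 3T3 Runx2 at day 0 and day 3, and 2110 of 16799 for GFP day 3. Removing peaks that overlap a GFP list left no primary-cell Runx2 peak in the window. Without the GFP day 3 list this site overlapped no GFP peak, and with the crossed lists exchanged it still overlapped a GFP peak, since the day 0 Runx2 list holds it as well.

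**Figure D4:**
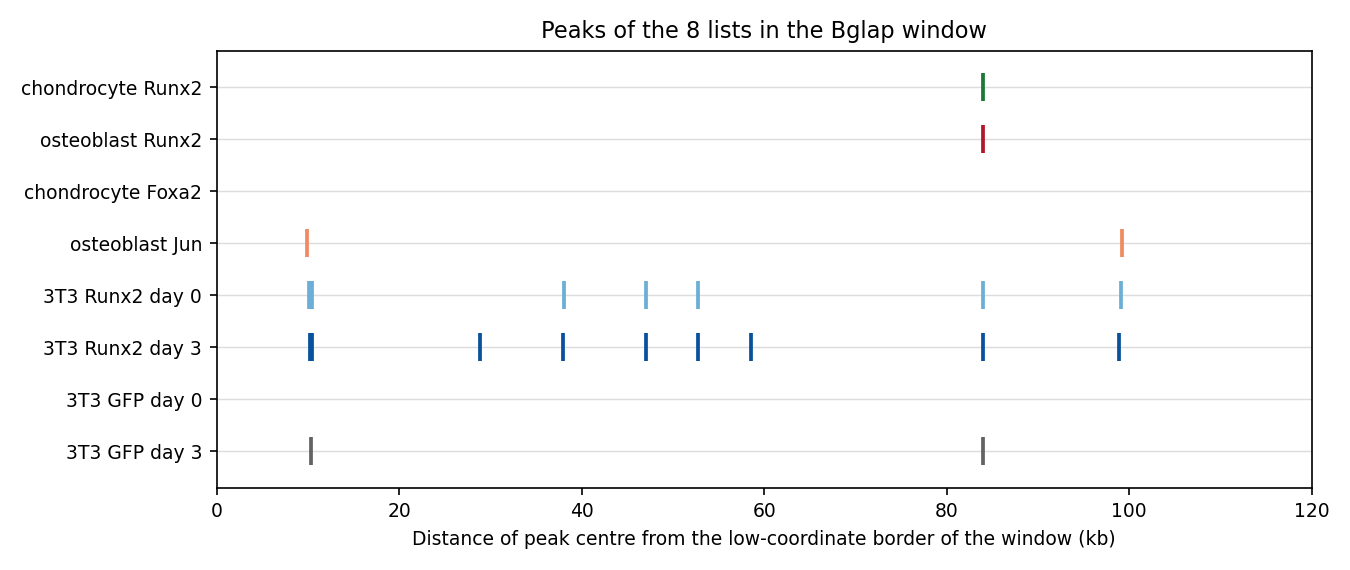
Each tick is the centre of 1 peak of the list named on the y axis, by its distance in kb from the low-coordinate border of the Bglap window (x axis). Ticks of 5 lists line up at 84.0 kb, and those of 3T3 Runx2 at both days line up at 6 further sites.

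The lists named for 3T3 Runx2 made up 16 of the 22 peaks of the Bglap window (72.7%), against 52.1% of the peaks of all lists. All 7 day 0 peaks were listed again at day 3 (100%, 59.0 to 100%), against 81.8% of the day 0 list, and after the exchange so were the 2 day 0 peaks. Of the 9 day 3 peaks, 7 were also at day 0 (77.8%, 40.0 to 97.2%), against 51.4% of the list, a share inside the interval. The 2 at day 3 only were chr3:88158747-88158983 and chr3:88188355-88188712. Those on both days, beside the site of 5 lists, lay at chr3:88140085-88140378, chr3:88140412-88140520, chr3:88167850-88168100, chr3:88176936-88177108, chr3:88182606-88182870 and chr3:88228807-88229293. The first of them overlapped GFP day 3, so that 2 of 9 day 3 peaks did (22.2%, 2.81 to 60.0%), against 15.9%. After exchange of the crossed lists the overlap with GFP day 3 was 7 of 9 and that with day 0 was 2 of 9.

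Of the 2 Jun peaks of the Bglap window, 1 overlapped a list named for Runx2, that of 3T3 cells at day 0. This peak, chr3:88229073-88229251, lay inside the 3T3 Runx2 day 0 peak of the last of these sites, overlapping 179 bp, and was 67 bp from the day 3 peak. After the exchange it overlapped GFP day 3 and no Runx2 list. The other Jun peak, chr3:88139820-88139951, ended 133 bp before the first of them. Neither overlapped osteoblast Runx2, which recurred at 17.6% of the Jun list. When the Bglap window was widened in the same way as that of Alpl, 4 of 9 osteoblast Runx2 peaks overlapped Jun (44.4%). The share of the whole osteoblast list was 25.3%. The lack of overlap between Jun and osteoblast Runx2 therefore holds for the Bglap window as drawn and depends on its borders. The share of the whole Jun list that overlaps 3T3 Runx2 day 0 was not computed, so the 1 of 2 has no background beside it.

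File position, the only order the lists carry, differed among members. In the Alpl window 6 of 8 osteoblast Runx2 peaks stood in the first 50% of their file, as did 2 of 3 chondrocyte Runx2, 4 of 8 Foxa2, 7 of 12 3T3 Runx2 day 0 and 14 of 28 day 3 peaks. The osteoblast peaks ranged from 8.94 to 95.5% of the list, the chondrocyte peaks from 41.6 to 90.2%. In the Bglap window both primary-cell Runx2 peaks stood in the first 50%, at 25.6% (chondrocytes) and 34.0% (osteoblasts). What this order stands for is not given in the sources used here.

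**Figure D5:**
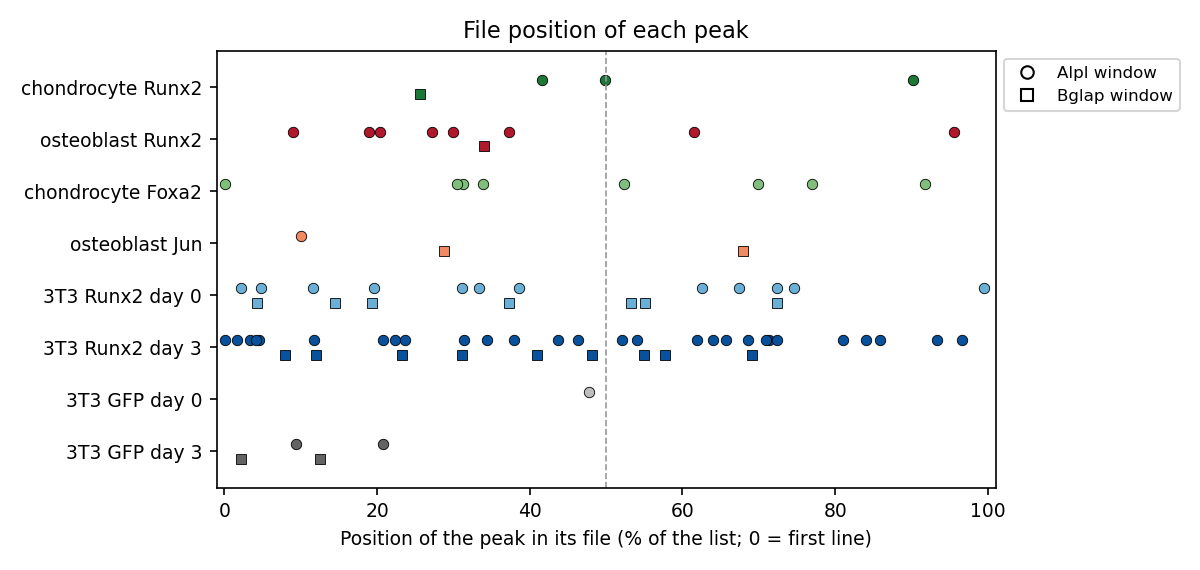
Position of each peak in its deposited file as a percentage of the list (x axis, 0 for the first line) by list (y axis), with circles for the Alpl and squares for the Bglap window and a dashed line at 50%. Members of the larger lists spread over the whole file, and 6 of 8 osteoblast Runx2 circles stand left of the line.

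At the borders of the Alpl window the outermost members lay 3.74 kb (3T3 Runx2 day 0, low side) and 3.25 kb (chondrocyte Runx2, high side) inside, and the nearest peaks left out lay 2.18 kb (osteoblast Runx2) and 2.90 kb (3T3 Runx2 day 3) outside. In the Bglap window the outermost members were the Jun peaks, 9.89 and 20.8 kb inside, and the nearest left out were of GFP day 0, 0.927 kb, and 3T3 Runx2 day 0, 6.34 kb outside.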

How the data were processed

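Each of the 8 peak lists deposited by the authors gave chromosome, start and end (bp, build mm9), with no score or p-value, as the files show. Bowtie and DiffBind are named in the submitters' processing notes without their steps. The peak caller, its threshold, the controls and whether replicate libraries were pooled are not given in the sources used here. Input, IgG and ATAC-seq samples were not analysed here.

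Windows and the stated Alpl interval came from the rule that chose the members. Members and lists were chosen with earlier results of these data known. Starts are printed 1-based. Peaks shared at least 1 bp to count as overlapping, and overlapping members were merged into sites. Whole-list shares and end-to-end stretches (from the first base to the last listed peak of each chromosome, assembly gaps included) served as background. Sites named by rule were those in 4 or more lists, in both primary-cell Runx2 lists, with Foxa2 or Jun at a Runx2 peak of the same cell type, or the 2 nearest the Alpl 5′ end. Other mineralization genes were not located, for want of an mm9 annotation. Overlap calls matched bedtools 2.31.1 in all 56 ordered pairs of lists (0 differed) and were tested on simulated data. The tools were SciPy 1.17.1, NumPy 2.4.6, matplotlib 3.10.9, pandas 2.3.3 and Python 3.11.15. Alternatives were other overlap rules (50% of the shorter peak, centres within 250 bp), window edges and lengths, the wider or the first 50% of each list, removal of peaks overlapping GFP and exchange of the crossed lists. Chosen after seeing the data were site counts without the crossed lists and the counts within 10 kb of the Alpl ends, also with exchange and GFP removal combined.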

Additional observations from a re-analysis of the deposited data

How the results depend on the processing

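No paired analysis was possible because each group has 1 list and no result comes from a test. Of 212 values under alternatives, 153 stayed within 1.5 times the count or within the interval of the share, and 59 moved. None moved with overlap of 50% of the shorter peak, centres within 250 bp, or any overlap with the window.

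In the stated Alpl interval alone, counts were 1 for chondrocyte Runx2, 3 for osteoblast Runx2, 3 for Foxa2, 0 for Jun, 2 and 12 for 3T3 Runx2 at day 0 and day 3 and 0 for both GFP lists; 16.7% of day 3 peaks were also at day 0, 0% of the 3T3 Runx2 peaks of either day overlapped GFP, and 0% of the chondrocyte peaks were in 3T3 Runx2 day 3. In windows widened by 50% on each side, Alpl had 9 chondrocyte and 14 osteoblast Runx2, 5 Jun, 21 and 43 3T3 Runx2 and 5 GFP day 3 peaks, and Bglap had 5 chondrocyte and 9 osteoblast Runx2, 1 Foxa2, 12 Jun, 17 and 27 3T3 Runx2, 5 GFP day 0 and 6 GFP day 3 peaks.

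In the first 50% of each list, Alpl had 4 Foxa2, 7 and 14 3T3 Runx2 peaks, and Bglap 1 Jun and 4 3T3 Runx2 day 0 peaks; at Alpl 0% of day 0 peaks overlapped GFP and 100% of chondrocyte peaks were in 3T3 Runx2 day 3. At the Alpl 3′ end it held 1 Foxa2 peak and 1 and 5 3T3 Runx2 peaks. In the wider 50%, which is a shorter list with fewer partners, 18.2% of Alpl day 3 peaks were at day 0, and the share was 0% for Alpl GFP overlap on both days, for Alpl osteoblast peaks in 3T3 Runx2 day 3, for Bglap day 3 overlap with GFP and with day 0, and for the Bglap chondrocyte peak in osteoblasts and in 3T3 Runx2 day 3.

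Exchange of the crossed lists gave 2 Runx2 day 0 and 12 GFP day 3 peaks at Alpl, 2 and 7 at Bglap and 0 Runx2 day 0 peaks at the Alpl 3′ end, where GFP removal after the exchange left 1 osteoblast and 6 day 3 Runx2 peaks. At Alpl, 3.57% of day 3 peaks were then at day 0, 35.7% overlapped GFP, and 50% of day 0 peaks overlapped GFP; at Bglap, 22.2% were at day 0 and 77.8% overlapped GFP. Removal of GFP overlaps left 0 chondrocyte and 0 osteoblast Runx2 peaks at Bglap. Without the crossed lists, sites in more than 1 list numbered 8 at Alpl and 2 at Bglap. Few peaks limit precision: the interval of each share in the report spanned that of the whole list, except for osteoblast Runx2 peaks overlapping chondrocyte Runx2 at Alpl. This exception comes from many shares examined, and it depended on the window edge. The widened window gave 21.4%, and a site of both cell types lay just outside the low border.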
